A study of Sus scrofa with 8 samples.

Results

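N6-methyladenosine (m6A) peaks were examined on the 38 genes that carried 5 or more peaks in every one of 4 deposited peak lists of pig muscle. The genes were chosen by Ensembl gene identifier from the number of peaks stated for each gene, and no other value entered the choice. They made up 0.673% of the 5650 genes with a peak in any list and 1.54% of the 2474 genes called in all 4 lists. Together they held 1103 of 26813 peaks. Of the 38 identifiers 37 had a symbol, and nebulin (NEB) was listed under 2 identifiers, so 36 symbols are represented. The lists came from 2 Jinhua and 2 Landrace males aged 180 days, Jinhua being a Chinese breed known for fat within its muscle and Landrace a lean European one. No transgene, mutation or treatment was named for either breed. Each animal gave an antibody-enriched (IP) and an input library of poly(A) RNA, so there were 8 samples in 4 groups of 2. Each list covers the peaks of 1 animal on Ensembl transcripts. Read numbers, enrichment and significance are not among its columns, and library depth is therefore unknown. In bulk muscle, fewer cells of a type, less RNA per cell and less methylation per RNA cannot be told apart from a missing call.

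m6A is added to messenger RNA inside the nucleus by a methyltransferase complex built around METTL3 and METTL14, is removed by demethylases such as ALKBH5, and is bound by reader proteins such as the YTHDF family. It lies in a short sequence context and is known to be frequent in long exons and around stop codons. Long coding exons and long untranslated regions (UTRs) therefore can hold several separate sites. In skeletal muscle several very large proteins, including titin, nebulin and the calcium release channel, are encoded by very long transcripts.

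The markers of muscle fibres were present in the lists. Of 14 fibre markers 12 had a peak in some list and 11 in all 4, and TTN and RYR1 were among the 38 genes. Of 6 adipocyte markers 3 were called and 2 in all 4 lists, and none reached 5 peaks in every list. Of 5 fibroblast markers 4 were called, 2 of them in all 4 lists, and COL3A1 was among the 38 genes. Of 4 endothelial markers 3 were called, each in all 4 lists, and of 4 macrophage markers 4 were called, 2 of them in all 4. Neither of these last lists held a gene with 5 peaks throughout. The part of non-fibre cells in the peak counts of the 38 genes was not tested.

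The 38 genes held a like share of each list. They carried 270 of 6433 peaks in Jinhua 1 (4.20%), 299 of 7733 in Jinhua 2 (3.87%), 265 of 6471 in Landrace 1 (4.10%) and 269 of 6176 in Landrace 2 (4.36%). Jinhua 2, the longest list, held the most peaks on these genes and the lowest share. The breed means were 4.03% ± 0.234 for Jinhua and 4.23% ± 0.184 for Landrace (SD over 2 males each). The difference of -0.19 percentage points was smaller than the pooled SD of 0.21. It was -0.359 without Jinhua 1, -0.0283 without Jinhua 2, -0.324 without Landrace 1 and -0.0634 without Landrace 2. The mean number of peaks per gene was 7.11, 7.87, 6.97 and 7.08 on these genes, taking Jinhua 1 and 2 and then Landrace 1 and 2, against 1.67, 1.73, 1.70 and 1.69 over each whole list. These counts chose the genes, so they are given without a test.

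Counts on most of the genes differed by few peaks between animals. In 3 genes the count was equal in all 4 lists, in 17 it differed by at most 1 and in 25 by at most 2, while 13 genes had a range of 3 or more. Gene means ran from 5 to 16 peaks with a median of 6.63. A count of exactly 5 occurred in at least 1 list for 20 genes, and 18 genes stayed above 5 throughout. Only DST, RYR1 and SRRM2 had 10 or more peaks in every list. Jinhua 2 had the sole highest count in 8 genes and the sole lowest in none, whereas Jinhua 1 had 5 and 6, Landrace 1 had 3 and 6 and Landrace 2 had 2 and 3.

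**Figure D1:**
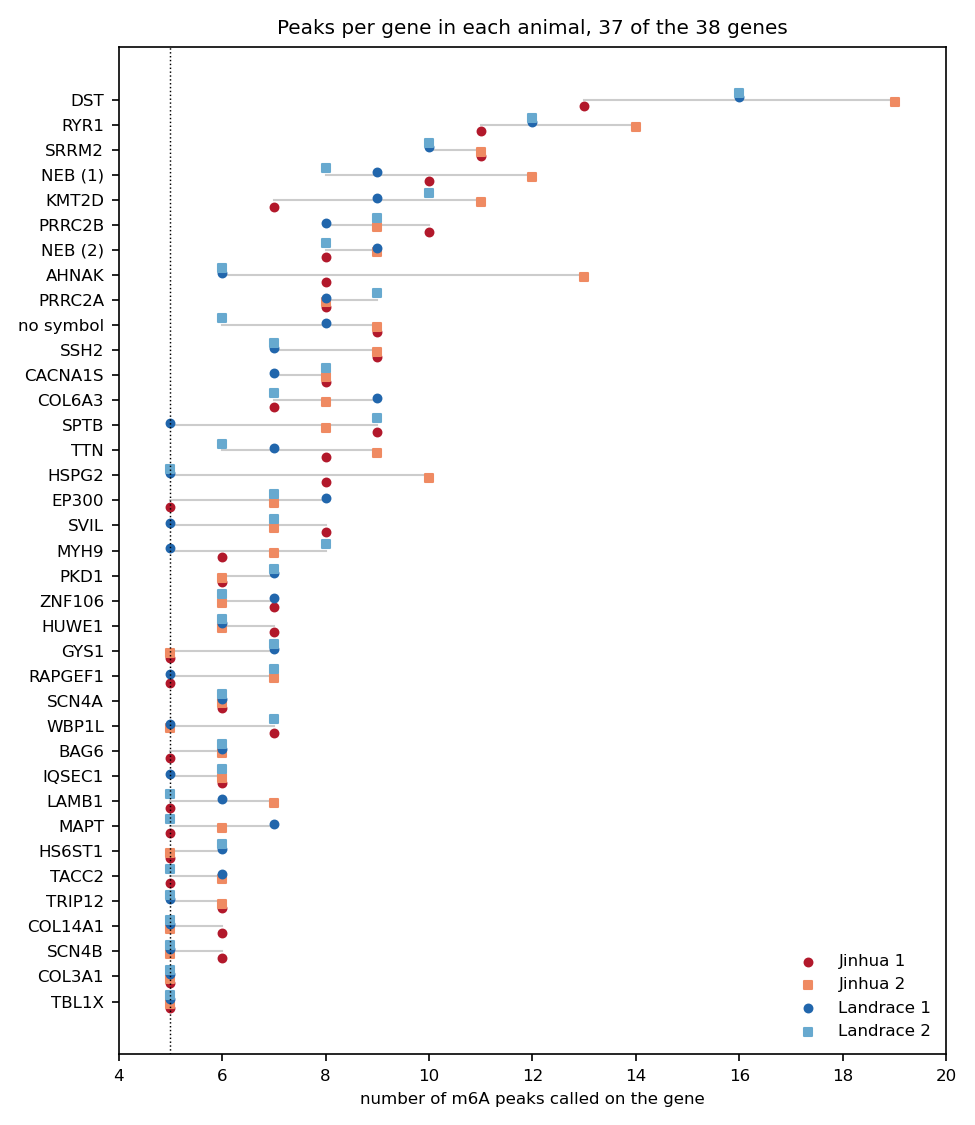
Number of m6A peaks called on 37 of the 38 genes, with a point for each animal (Jinhua 1 and 2 in reds, Landrace 1 and 2 in blues) and a grey line from the lowest to the highest count. The dotted line marks the minimum of 5. DST stands at 13 to 19, AHNAK has the widest range, from 6 to 13, and many genes touch the minimum in some list. NEB (1) and NEB (2) are the 2 nebulin identifiers.

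The minimum of 5 drew a line through a continuous range. COL3A1 and TBL1X had 5 peaks in each of the 4 lists and stood just inside. Another 50 genes had 4 peaks in some list and at least 4 in the others, and 26 of these reached 5 in all lists but 1. SPTAN1, which encodes the spectrin partner of the member SPTB, had 4, 8, 5 and 9 peaks taking Jinhua 1 and 2 and then Landrace 1 and 2. CREBBP, the acetyltransferase paralogous to the member EP300, had 9, 7, 5 and 4. The splicing factor gene SON had 6, 8, 7 and 4, and FLNC, which encodes the Z-disc filamin, had 8, 6, 6 and 4. These 4 missed the minimum by 1 peak in a single animal.

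Genes of the contractile and calcium apparatus held some of the highest counts. Of 24 sarcomere and Z-disc identifiers called in all 4 lists, 3 (12.5%) reached the minimum, and of 13 excitation-contraction and calcium genes 3 did (23.1%), against 1.54% of all genes called in all 4 lists. The gene lists used here and below were drawn up with earlier results of these data known, so these shares are descriptions. Most lists of other functions had shares of 12% to 23.8%, so a high share was not particular to this apparatus. RYR1 (ENSSSCG00000002961) encodes the channel that frees calcium from the sarcoplasmic reticulum. Its 11 and 14 Jinhua peaks lay on either side of the 12 found in both Landrace males. CACNA1S, the voltage sensor that opens it, had 8, 8, 7 and 8, the counts of a gene being given throughout for Jinhua 1 and 2 and then Landrace 1 and 2. The highest count was 1.27 times the lowest for RYR1 and 1.14 times for CACNA1S, and the breeds overlapped in both genes.

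A pore-forming and an auxiliary subunit gene of voltage-gated sodium channels were members. SCN4A, the pore-forming subunit in skeletal muscle, had 6 peaks in each of the 4 lists. SCN4B, an auxiliary subunit, had 6 in Jinhua 1 and 5 in each of the other lists. The parts of the transcript differed: every SCN4A peak in Jinhua 1 and Landrace 2 was annotated as coding, whereas in SCN4B 5 of 6 peaks in Jinhua 1 and 4 of 5 in Landrace 2 lay in the 3' UTR. SCN4B was on none of the gene lists and is named for its 3' UTR share.

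Nebulin sets the length of the thin filament and titin spans the sarcomere from Z-disc to M-line. NEB had 10, 12, 9 and 8 peaks under ENSSSCG00000016397 and 8, 9, 9 and 8 under ENSSSCG00000016398, taking Jinhua 1 and 2 and then Landrace 1 and 2. TTN (ENSSSCG00000024087) had 8, 9, 7 and 6. Under the first nebulin identifier and in TTN both Jinhua counts lay above both Landrace counts, whereas under the other nebulin identifier the breeds overlapped. The last base in any listed peak was 7650 and 5842 for the nebulin transcripts and 5970 for the titin transcript. Full-length nebulin and titin messages are far longer, so the transcripts named in the lists appear to be partial models and these counts cover part of each message.

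Giant cytoskeletal linkers and actin regulators contributed 5 of the 21 genes of their list that were called in all 4 lists (23.8%). DST (ENSSSCG00000001499), a linker between actin, microtubules and intermediate filaments, had 13 peaks in Jinhua 1 and 19 in Jinhua 2, around the 16 of both Landrace males. Its range of 6 exceeded that of every member but AHNAK. AHNAK (ENSSSCG00000027969), a very large scaffold protein beneath the plasma membrane, had 8 and 13 Jinhua peaks against 6 in both Landrace males, and its highest count was 2.17 times its lowest. SSH2, a phosphatase that activates the actin-severing protein cofilin, had 9 in both Jinhua males against 7 in both Landrace males. SPTB, the beta subunit of spectrin, had 9, 8, 5 and 9, so that Landrace 1 alone stood low. SVIL, which ties actin and myosin to the membrane, had 8, 7, 5 and 7, with the same animal lowest.

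Transcripts for RNA-binding and chromatin proteins formed another group. Of 15 RNA-binding, splicing and translation genes called in all 4 lists 3 were members (20%), and of 25 chromatin modifiers and co-activators 3 were (12%). SRRM2, a scaffold of nuclear speckles rich in serine and arginine, had 11 peaks in both Jinhua males against 10 in both Landrace males. The paralogues PRRC2B and PRRC2A, which encode proline-rich proteins that bind RNA, had 10, 9, 8 and 9 peaks and 8, 8, 8 and 9. KMT2D, a histone methyltransferase of enhancers, had 7, 11, 9 and 10. EP300, a histone acetyltransferase, had 5, 7, 8 and 7. Jinhua 1 had the lowest count for both of these chromatin genes. TBL1X, which encodes a subunit of transcriptional corepressor complexes and was not on the list, had 5 in every animal.

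Matrix genes made up 4 of 24 listed genes called in all 4 lists (16.7%). COL6A3, a chain of the collagen around muscle fibres, had 7, 8, 9 and 7 peaks taking Jinhua 1 and 2 and then Landrace 1 and 2. HSPG2, which encodes the basement membrane proteoglycan perlecan, had 8 and 10 Jinhua peaks against 5 in both Landrace males. The breeds did not overlap for this gene, whose highest count was 2 times its lowest. LAMB1, a laminin chain, had 5, 7, 6 and 5, and COL3A1, a fibrillar collagen, had 5 in each. COL14A1, a collagen that associates with fibrils, was a member outside the list with 6, 5, 5 and 5.

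Genes of metabolism, signalling, protein turnover and transcription added 4 members. GYS1, muscle glycogen synthase, was the single member among 15 genes of lipid and energy metabolism called in all 4 lists (6.67%, against 1.54% of all such genes), with 5 peaks in both Jinhua males against 7 in both Landrace males. None of the 10 genes of insulin, AMPK, mTOR and calcineurin signalling and none of the 4 genes of the m6A machinery that were called in all 4 lists was a member, and lists this short say little at a background of 1.54%. The median number of peaks among those genes, as a mean over the lists, was 3 and 1.75, against 1.75 for all genes called in all 4 lists. Of 9 ubiquitin and protein turnover genes 2 were members (22.2%): the ubiquitin ligase genes HUWE1, with 7 peaks in Jinhua 1 and 6 in each other animal, and TRIP12, with 6 in both Jinhua males against 5 in both Landrace males. ZNF106, a zinc finger protein gene, was 1 of 8 listed transcription factor and zinc finger genes (12.5%), with 7, 6, 7 and 6. These gene lists were drawn up with earlier results of these data known, so their shares are descriptions and no test was made.

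The 13 members on no list were of several kinds. Beside SCN4B, COL14A1 and TBL1X they were MYH9, a non-muscle myosin heavy chain, with 6, 7, 5 and 8 peaks, PKD1, which encodes polycystin, with 6, 6, 7 and 7, and RAPGEF1, an activator of RAP GTPases, with 5, 7, 5 and 7. WBP1L, which encodes a protein that binds WW domains, had 7, 5, 5 and 7. BAG6, a chaperone of protein quality control, had 5, 6, 6 and 6, and MAPT, the microtubule protein tau, had 5, 6, 7 and 5. IQSEC1, an activator of ARF GTPases, had 6, 6, 5 and 6, HS6ST1, an enzyme that adds sulfate to heparan sulfate, had 5, 5, 6 and 6, and TACC2, a coiled-coil protein of the centrosome, had 5, 6, 6 and 5. IQSEC1, MAPT and BAG6 were named to account for every member, after their values were seen. The identifier without a symbol, ENSSSCG00000013994, had 9, 9, 8 and 6. Of the members matched to RefSeq (assembly Sscrofa11.1), PRRC2A and BAG6 were direct neighbours among protein-coding genes, and PRRC2B and RAPGEF1 had 3 such genes between them.

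Breeds did not overlap in the peak counts of 11 members. In 8 members (21.1%) both Jinhua counts exceeded both Landrace counts, where 7.96% of the 2474 genes called in all 4 lists and 12% of the 50 genes with a lowest count of 4 did so. These were AHNAK, HSPG2, NEB under its first identifier and not its other one, SSH2, TTN, the gene without a symbol, SRRM2 and TRIP12. Their mean differences ran from 4.5 peaks in AHNAK and 4 in HSPG2 to 1 in SRRM2 and TRIP12. In 3 members (7.89%), GYS1, PKD1 and HS6ST1, both Landrace counts were the higher, where the background was 4.77% of genes called in all 4 lists and 8% of those with a lowest count of 4. Without Jinhua 2, whose list was the longest, 13 members were higher in Jinhua 1 than in both Landrace animals (34.2%, against 15.2% of genes called in all 4 lists) and 9 were lower (23.7%, against 11.3%). Without Landrace 2 the counts were 14 (36.8%, against 13.9%) and 6 (15.8%, against 13%). Without Jinhua 1 they were 12 (31.6%, against 19.6%) and 3 (7.89%, against 9.46%). Without Landrace 1 they were 8 (21.1%, against 13.1%) and 5 (13.2%, against 12.2%). With 1 animal left for a breed such separation becomes more frequent by construction. Over all 38 genes the mean count was higher in Jinhua for 18, higher in Landrace for 10 and equal for 10. An exact test between breeds of 2 animals cannot go below p = 0.333, two-sided.

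Positions were complete for Jinhua 1 and Landrace 2 only. The other lists give at most 4 positions for a gene, in an order that did not follow position on the transcript, and the annotated part for at most 3. Of the member peaks in Jinhua 2 147 and in Landrace 1 113 therefore have no position, and 152 in each list have one. All 38 genes were placed on the same transcript in all 4 lists. The last base in any listed peak ranged from 3400 in COL3A1 to 22340 in DST, with a median of 5826. Across the 38 genes the mean number of peaks rose with this last base, which is a lower bound on the length of the transcript model (Spearman's rho = 0.70, as a description). Both values come from the same peaks, so part of the relation is built in. Counted to that base, mean density was 1.20 peaks per 1000 bases in the median gene. It was highest in PRRC2A at 1.79 and lowest in PKD1 at 0.459.

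**Figure D2:**
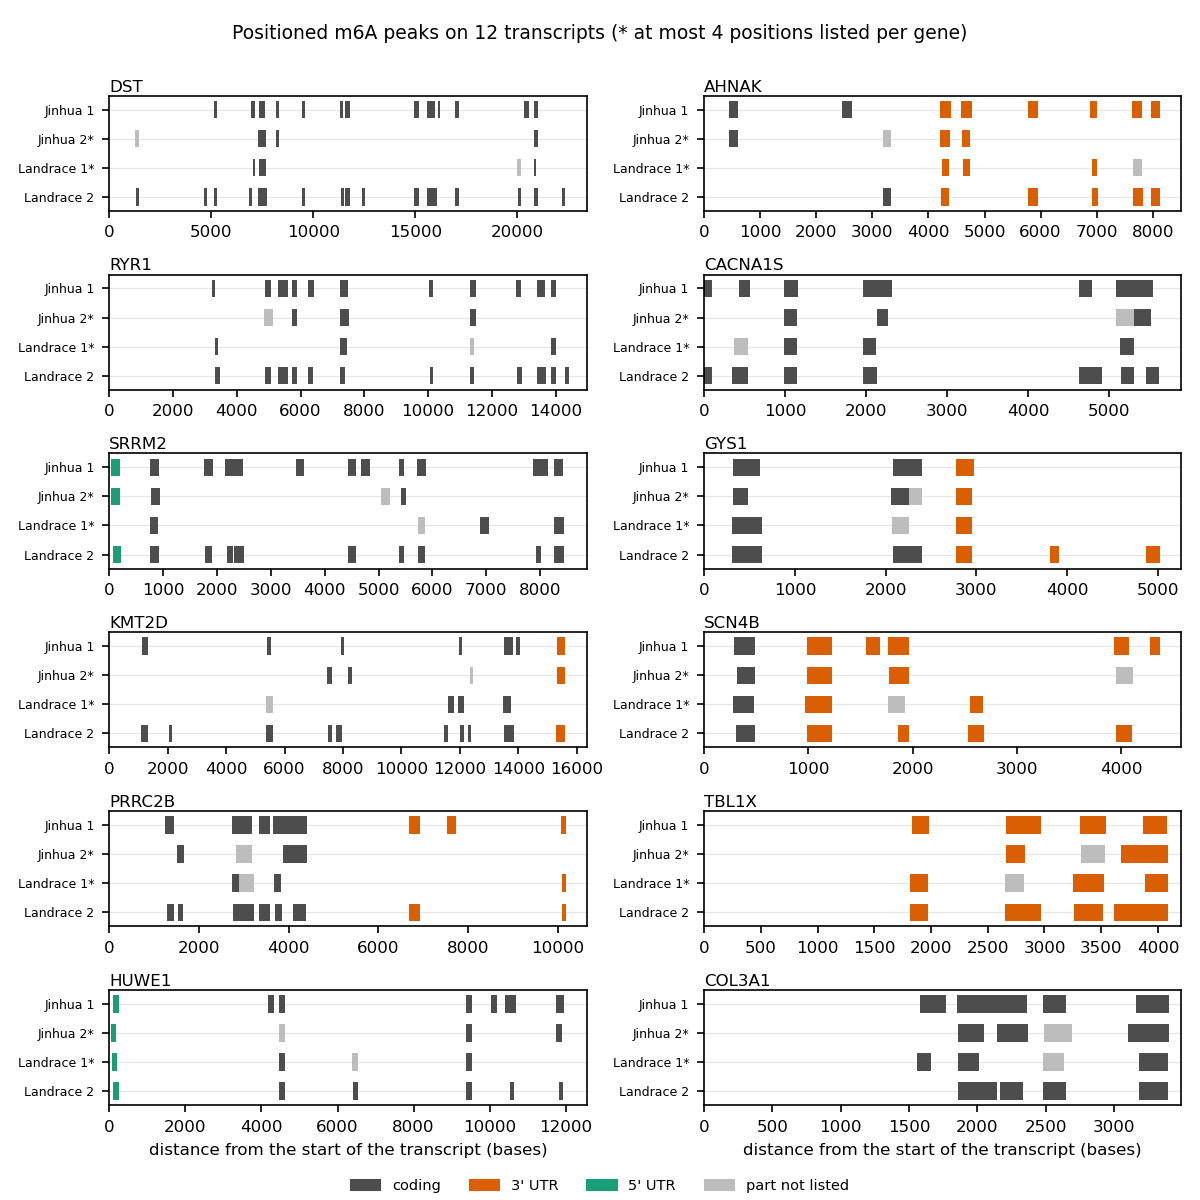
Positioned m6A peaks on 12 transcripts, as distance in bases from the start of the transcript, with 1 row per animal. Colour gives the annotated part (coding, 3' UTR, 5' UTR, or not listed), and an asterisk marks the lists with at most 4 positions per gene. Every annotated peak of DST, RYR1 and CACNA1S is coding, those of TBL1X lie in the 3' UTR, and most blocks recur between Jinhua 1 and Landrace 2.

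Peaks of the 38 genes were mostly coding in both animals. Coding peaks numbered 217 of 270 in Jinhua 1 (80.4%, with 75.2 to 84.7 as the 95% Wilson interval) and 220 of 269 in Landrace 2 (81.8%, 76.7 to 85.9). In the 2436 other genes called in all 4 lists the shares were 68.7% (67.3 to 70.0) and 70.3% (69.0 to 71.6). The 3' UTR held 41 peaks in Jinhua 1 (15.2%) and 39 in Landrace 2 (14.5%), against 24.9% and 22.5% in the other genes. The 5' UTR held 3 peaks in each (1.11%, 0.379 to 3.22, and 1.12%, 0.380 to 3.23), against 6.12% and 6.68%. The 50 genes with a lowest count of 4, which are among those other genes, stood between for coding sequence, at 76.2% and 77.3%. Their 3' UTR shares of 16.7% and 14.6% were close to those of the 38 genes. Their 5' UTR shares of 7.14% and 8.15% lay above both groups. These intervals cover counting error of peaks and treat peaks of 1 gene as independent, and no test across animals can be made with 1 complete list per breed. Peaks starting at base 1 were annotated as coding in CACNA1S, IQSEC1, LAMB1 and SCN4A in both complete lists. Those transcript models thus show no 5' UTR in which a peak could be called. How far this affects the shares was not tested, and how many other genes have such models was not counted. The parts were not set against their lengths, which the lists do not give.

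The share in the 3' UTR came from a subset of genes. In Jinhua 1 18 members had coding peaks alone and 15 had both coding and 3' UTR peaks, and in Landrace 2 these numbers were 20 and 14, counting HS6ST1, which also had a 5' UTR peak. TBL1X was the single gene with every peak in the 3' UTR, 5 of 5 in both animals. SCN4B had 5 of 6 and 4 of 5 peaks there, AHNAK had 6 of 8 and 5 of 6, HS6ST1 had 3 of 5 and 3 of 6, and WBP1L had 4 of 7 and 4 of 7, each in Jinhua 1 and Landrace 2. In AHNAK the annotated change from coding sequence to 3' UTR fell between base 3339, the end of the last peak annotated as coding, and base 4201, the start of the first 3' UTR peak. The human AHNAK protein is encoded by an unusually long coding exon, and the parts printed here are the authors' annotation and were not checked against a sequence. SSH2 peaks were annotated as UTR with no side given, 9 of 9 in Jinhua 1 and 7 of 7 in Landrace 2. Without AHNAK and SSH2 the coding share was 85.0% in Jinhua 1 and 85.5% in Landrace 2.

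Peaks annotated as coding and as 3' UTR seldom lay close together. Of the 15 members with both kinds of peak in the pooled lists, WBP1L alone had them within 100 bases. In WBP1L a coding peak at bases 907 to 1229 was followed directly by a 3' UTR peak at 1230 to 1452 in Jinhua 1, and the pair met at 1228 and 1229 in Landrace 2. In Landrace 1 a coding peak ended at 1222 and a 3' UTR peak began at 1223. COL14A1 and IQSEC1 had the next smallest distances, 153 and 170 bases, and PRRC2B the largest, 2270 bases. These distances run from the last peak labelled coding to the first labelled 3' UTR. The stop codon is not placed in the lists, and a peak over it carries a single label. Peaks at stop codons were therefore not counted.

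**Figure D3:**
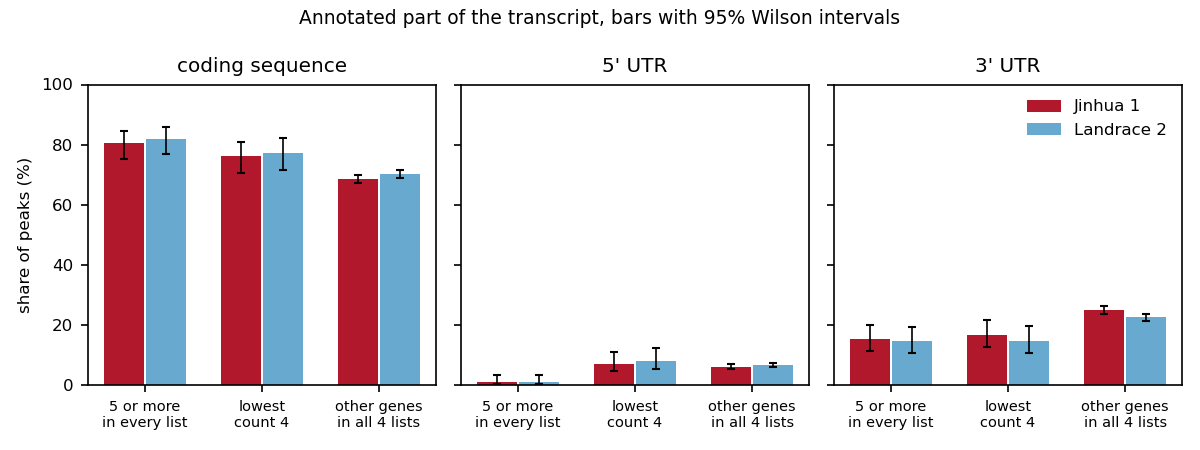
Share of peaks annotated as coding sequence, 5' UTR and 3' UTR in Jinhua 1 (red) and Landrace 2 (blue), the 2 lists with complete positions, with 95% Wilson intervals as error bars. Groups are the 38 genes with 5 or more peaks in every list, the 50 genes with a lowest count of 4 and all other genes called in all 4 lists, which include those 50. The 38 genes have 80.4% and 81.8% coding peaks and about 1% in the 5' UTR.

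The 5' UTR peaks lay in a few genes. SRRM2 had 1 in Jinhua 1 (bases 34 to 202), Jinhua 2 (40 to 203) and Landrace 2 (69 to 222). HUWE1 had 1 in all 4 animals, at bases 95 to 250, 45 to 180, 81 to 210 and 95 to 245 taking Jinhua 1 and 2 and then Landrace 1 and 2, and the 4 peaks shared bases 95 to 180. HS6ST1 had 1 in each Landrace animal, at bases 252 to 405 and 256 to 473, and none in the complete list of Jinhua 1 or among the 4 positions of Jinhua 2. The gene without a symbol had 1 in both Jinhua males, starting at base 46 in each, and none listed for Landrace.

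Most peaks of the 38 genes fell in the same places in Jinhua 1 and Landrace 2. Of 270 Jinhua 1 peaks 215 (79.6%, 74.4 to 84.0) overlapped a Landrace 2 peak by 1 base or more, and of 269 Landrace 2 peaks 223 (82.9%, 77.9 to 86.9) overlapped one of Jinhua 1. In the 2436 other genes called in all 4 lists the shares were 81% and 82.5%, inside those intervals. In the 50 genes with a lowest count of 4, which are among those other genes, they were 82.9% and 88.8%. The second of these lies above the interval of the 38 genes. In the 619 genes with exactly 1 peak in every list the share was 98.9% in both directions. Of bases in peaks of either animal, the share in both, the Jaccard index, was 0.603 on the 38 genes and 0.582 on the others. The centres of overlapping peaks lay a median of 12.5 bases apart (quartiles 4.5 and 36, 239 pairs), and 80.8% of pairs were within 50 bases. Only 9 pairs had the same start and end.

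The calcium release channel gene shows where the peaks lay. Of the 11 RYR1 peaks in Jinhua 1, 10 overlapped a Landrace 2 peak, and 10 of 12 peaks in Landrace 2 overlapped one in Jinhua 1. Taking Jinhua 1 and 2 and then Landrace 1 and 2, peaks spanned bases 7226 to 7500, 7226 to 7510, 7226 to 7450 and 7224 to 7397, a site found in all 4 animals. Another such site spanned 11297 to 11494, 11301 to 11492, 11301 to 11440 and 11301 to 11440. Near the other end of the message, a peak at 14291 to 14406 was listed in Landrace 2 alone. At the low end of the transcript, Jinhua 1 had a peak at 3211 to 3313 and Landrace 2 one at 3321 to 3470, which did not overlap each other, while a Landrace 1 peak at 3311 to 3410 overlapped both.

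Agreement ranged widely between genes. In 9 members every Jinhua 1 peak overlapped a Landrace 2 peak, and in 11 the reverse held. Both held in LAMB1, TBL1X and COL14A1. The gene without a symbol had the lowest share, 5 of 9 Jinhua 1 peaks (55.6%). COL6A3 and ZNF106 followed with 4 of 7 Jinhua 1 peaks each (57.1%), then TACC2 with 3 of 5, and AHNAK and HSPG2 with 5 of 8 each. For AHNAK and HSPG2, whose counts were higher in Jinhua, 5 of 6 and 5 of 5 Landrace 2 peaks overlapped a Jinhua 1 peak. For GYS1, whose counts were higher in Landrace, all 5 Jinhua 1 peaks overlapped Landrace 2 peaks, and the further Landrace 2 peaks, 3811 to 3910 and 4870 to 5023, were both annotated as 3' UTR.

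**Figure D4:**
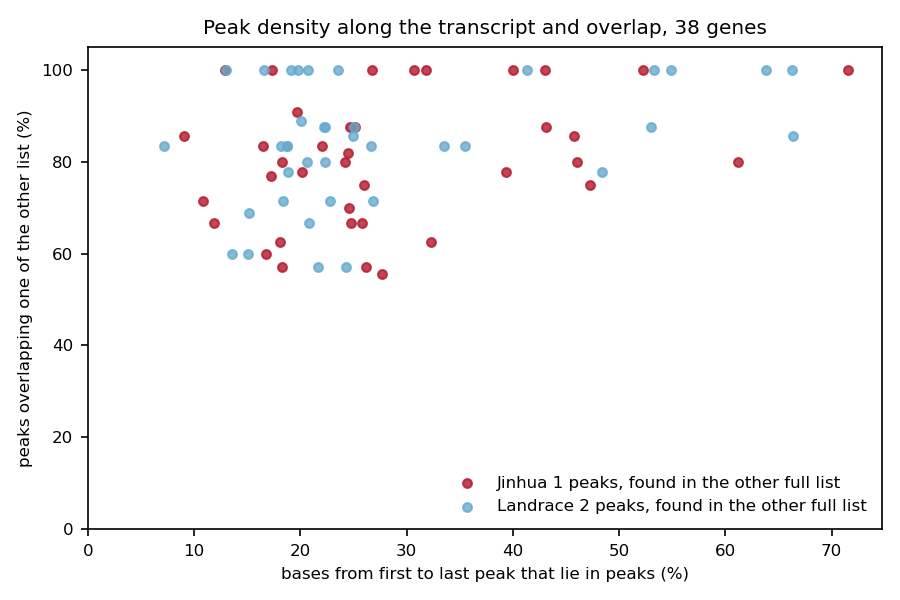
Share of the bases between the first and the last peak of a gene that lie in peaks (horizontal) and share of its peaks that overlap a peak of the other complete list (vertical), for the 38 genes in Jinhua 1 (red) and Landrace 2 (blue). Each gene gives a point per animal. In Jinhua 1 overlap runs from 55.6% to 100%, and 9 genes stand at 100%.

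The incomplete lists gave similar values against both complete ones. Of 152 positioned peaks in Jinhua 2 126 (82.9%, 76.1 to 88.1) overlapped a Jinhua 1 peak and 124 (81.6%, 74.7 to 86.9) a Landrace 2 peak. Of 152 in Landrace 1 128 (84.2%, 77.6 to 89.2) overlapped a Landrace 2 peak and 130 (85.5%, 79.1 to 90.2) a Jinhua 1 peak. A list of the same breed thus held no visibly larger share of these peaks than a list of the other breed. Of the Jinhua 1 peaks 32 of 270 (11.9%) overlapped no listed peak of any other animal, and of the Landrace 2 peaks 19 of 269 (7.06%).

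Overlapping or adjoining peaks of the 4 lists merged into 299 sites on the 38 genes. Of these 193 (64.5%) held a peak of both Jinhua 1 and Landrace 2, 47 of Jinhua 1 and not Landrace 2, 41 of Landrace 2 and not Jinhua 1, and 18 of neither. Despite the missing positions 70 sites (23.4%) had a listed peak in all 4 animals, and 35 of the 38 genes had at least 1 such site. KMT2D and NEB under both identifiers had none. Such a site can chain peaks that do not all overlap. No base lay in peaks of all 4 animals at 1961 to 2319 of CACNA1S or at 5160 to 5591 of EP300. The same held at the 2 such sites of the gene without a symbol. Genes held 4 to 18 sites with a median of 8. DST had the most, 18, of which 2 were listed in all 4 animals, at bases 7280 to 7724 and 20794 to 21018.

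Sites that parted the breeds were about as frequent as sites that parted the animals in other ways. Of sites in Jinhua 1 and not in Landrace 2, 13 were also listed in Jinhua 2 and 12 in Landrace 1. Of sites in Landrace 2 and not in Jinhua 1, 13 were also listed in Landrace 1 and 13 in Jinhua 2. The Jinhua males shared 6 sites with no listed Landrace peak, and the Landrace males 11 with no listed Jinhua peak. The 11 include bases 11470 to 11786 of KMT2D, where the peaks of the Landrace males adjoin and share no base. The mixed pairs gave 5 for Jinhua 1 with Landrace 1 and 11 for Jinhua 2 with Landrace 2. Sites of the first kind included bases 436 to 604 of the AHNAK transcript, with the same start and end in both males, and bases 8166 to 8321 of DST. Sites of the second kind included bases 20001 to 20180 of DST and 5481 to 5667 of COL6A3. A site absent here from an incomplete list may be among its peaks without a position.

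Base overlap over the first 4 listed peaks of each gene did not part the breeds firmly. The Jaccard index was 0.279 within Jinhua and 0.364 within Landrace, and 0.249, 0.281, 0.327 and 0.300 for Jinhua 1 with Landrace 1 and 2 and Jinhua 2 with Landrace 1 and 2. The same-breed mean of 0.322 exceeded the mixed mean of 0.289 by 0.0325, the highest of the 3 ways to pair the animals (exact permutation, one-sided p = 0.333, which is the smallest possible). The difference turned to -0.0111 without Landrace 1 and to -0.00870 without Landrace 2. It also turned with fewer peaks per gene, to -0.00152 with the first 3 and -0.00181 with the first 2. Lists with the same peaks in another order would score low here, since different peaks would then be among the first 4.

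Peaks of the 38 genes were wider in both Jinhua animals than in both Landrace animals. The median width of the first 4 listed peaks was 178 bases in Jinhua 1, 170 in Jinhua 2, 161 in Landrace 1 and 165.5 in Landrace 2, with breed means of 174 ± 5.66 and 163 ± 3.18 (SD, n = 2 each). The difference of 10.8 bases gave an exact permutation p of 0.333, two-sided, the smallest possible, so the test could not have called it at any size. The same order of breeds held in the 50 genes with a lowest count of 4, at 168, 167, 161 and 165. In all other genes called in all 4 lists, which include those 50, the medians were 162, 160, 158 and 158. Both Jinhua values were again the higher, so the order was not particular to the 38 genes. Over all peaks of the complete lists the median width on the 38 genes was 174 bases in Jinhua 1 and 162 in Landrace 2, against 162 and 158 in those other genes. No peak was narrower than 100 bases.

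Neighbouring peaks on a gene were separated by a median of 332 bases in Jinhua 1 and 350 in Landrace 2, and gaps reached 7377 bases in PKD1. In 47 of 232 gaps in Jinhua 1 (20.3%) and 52 of 231 in Landrace 2 (22.5%) the neighbours lay within 100 bases. Of these 23 and 24 were directly adjoining pairs, in 14 and 17 genes, in which the second peak began at the base after the end of the first. In GYS1 such a pair met after base 487 in Jinhua 1, Landrace 1 and Landrace 2, and the Jinhua 2 peak there also ended at base 487. In SSH2 a pair met after base 3169 in both Jinhua animals. Adjoining peaks count as 2 in the stated numbers, so part of a high count can be 1 wide stretch divided.

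Some peak edges fell on the same base in several animals. A start was shared exactly by all 4 lists at base 2776 of GYS1 and at base 1 of SCN4A, and an end at base 487 of GYS1. Starts were shared by exactly 3 lists at 8 bases in 7 genes, among them 7226 and 11301 in RYR1 and 390 in TRIP12. The 8 also include base 1 of LAMB1. In LAMB1 and SCN4A base 1 is the first base of the transcript model, before which no peak can start. Ends were shared by 3 lists at 9 bases in 8 genes. Of the starts 37.4% in Jinhua 1, 30.9% in Jinhua 2, 38.8% in Landrace 1 and 32.0% in Landrace 2 had 1 as their last digit, and of the ends 33.0%, 27.0%, 33.6% and 32.7% had 0. In the other genes called in all 4 lists these shares were 37.3% to 40.1% for starts and 34.9% to 36.7% for ends.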

How the data were processed

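The 4 peak lists were deposited by the authors, 1 per animal, each called from an IP and an input library and not pooled. TRIzol extraction, mRNA purification, sonication, capture with an m6A antibody and stranded libraries are stated per the labels' protocols. TopHat2 2.0.14 and the builds Sscrofa 10.2 and susScr 3 appear in the submitters' processing notes. How peaks were called, at which threshold and on which annotation release is not given in the sources used here. Columns, per the file headers, are gene, transcript, number of peaks, and start, end and annotated part of each peak. Bases are numbered from 1 along the transcript, not the genome. Depth is unknown.

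Members and gene lists were chosen with earlier results of these data known. Overlap meant 1 shared base on a transcript. Shares have 95% Wilson intervals for counting error only. Exact permutation over the animals was used for the base overlap and the width. The genes named were the 10 with most peaks, those whose breeds did not overlap in count, listed genes, those with extreme overlap or 3' UTR or 5' UTR peaks, and 4 just below the minimum. Labels describe 2 separate males per breed. In a check of the code, 40 of 40 planted genes were recovered among 1000 simulated ones, where no other gene could reach the minimum. Symbols came from the lists and a gene name table. Sequence under the peaks was not used here. The values of 1 member are not reported here by name, and that gene stays in all counts and shares. Python 3.11.15, numpy 2.4.6, scipy 1.17.1 and matplotlib 3.10.9 were used.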

Additional observations from a re-analysis of the deposited data

Results flagged for a closer look

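The lines of 2 members held more peak entries than the number given for the gene, 11 in all and none on any other gene, a signal outside the counts used above. The DST row held 1 in Jinhua 1 and 8 in Landrace 2, and the RYR1 row held 2 in Landrace 2. Of the 9 DST entries 5 overlapped a listed DST peak of the same animal, among them bases 14938 to 15193 in Landrace 2, which repeat a listed peak exactly. Another, at 20321 to 20420, overlapped a DST peak of another animal, and 3 overlapped none, at 873 to 980, 11082 to 11256 and 17941 to 18060. Of the RYR1 entries, that at 8139 to 8298 names the KMT2D transcript, ENSSSCT00000031953, and overlapped a KMT2D peak of another animal. The entry before it, at 11470 to 11650, names no transcript, and its start is also that of the listed KMT2D peak at 11470 to 11600 in Landrace 2. No group had the 4 or more animals needed to look for a single animal far from the others.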

How the results depend on the processing

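The number of members followed the minimum: it was 88 with 4 peaks, 18 with 6, 68 with a mean of 5 and 37 with identifiers joined by symbol, and 43 to 49 with 1 animal left out. With a minimum of 4, 14 of the 88 members were higher in Jinhua and 7 in Landrace. With 6, 6 of 18 were higher in Jinhua and 1 in Landrace. Over all genes called in all 4 lists, most of which carry fewer peaks, the shares were 7.96% for Jinhua and 4.77% for Landrace. With 1 animal left out, 8 to 14 of the 38 members were higher in Jinhua, while the share of all genes called in all 4 lists rose from 7.96% to between 13.1% and 19.6%. In Landrace 3 to 9 were higher, while that share rose from 4.77% to between 9.46% and 13%. The breed difference in the share of peaks was -0.377 percentage points with a minimum of 4 and -0.0491 with 6. The coding share was 85.0% in Jinhua 1 and 88.4% in Landrace 2 with a minimum of 6, where the 3' UTR share was 7.19% and 5.44%. The 5' UTR share was 4.02% and 4.38% with a minimum of 4. Without AHNAK and SSH2, an alternative chosen after seeing the data, the coding share was 85.0% in Jinhua 1. Among peaks of 150 bases or more 73.9% of Jinhua 1 peaks overlapped a Landrace 2 peak. The same-breed difference in base overlap was -0.00152 with the first 3 listed peaks, -0.00181 with the first 2, and -0.0111 to 0.0990 with 1 animal left out. The causes were not tested. The width difference stayed positive, at 6.75 to 14.8 bases with 1 animal left out. The remaining alternatives, including overlap of 50% of the shorter peak and joining peaks within 100 bases, kept their direction and moved by less than the interval or spread. No paired analysis was possible because the results come from no model fit and the replicate numbers name separate animals of different breeds. Unknown depth and missing positions in 2 lists limit every count of absent peaks.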
